A study of Mus musculus with 3 samples.

Results

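Kinesin genes of NSC-34 cells were described from mRNA sequencing of cells resistant to a toxic dipeptide repeat and of untreated cells. Members were the rows of the count table whose symbol begins with Kif and a number or with Kifc, together with the kinesin light chain genes Klc1 to Klc4. Names that contain bp or os were left out. This gave 46 of 22976 genes: 12 mitotic motors, 17 transport motors, 4 light chains and 13 other kinesins, the roles being assigned from background knowledge.

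The NSC-34 line is a mouse hybrid of neuroblastoma and of embryonic spinal cord cells enriched in motor neurons. The control was 1 library of wild-type cells with no treatment. The other 2 libraries, called clone 1 and clone 2, came from wild-type cells labelled as spontaneously resistant to PR20, a peptide of proline and arginine repeats like that translated from the expanded C9ORF72 repeat, after 10 µM PR20 for 3 weeks. All 3 were grown on gelatin in the same serum-containing medium. Each resistant library is 1 clone, so what sets a clone apart and what resistance or PR20 does cannot be told apart.

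Kinesins are motor proteins that use ATP to move along microtubules or to take them apart. Dividing cells use one set to build the bipolar spindle, move chromosomes and complete cytokinesis. Neurons use another set to carry vesicles, mitochondria and cytoskeletal proteins from the cell body into the axon. The kinesin-1 motor is a dimer of KIF5 heavy chains that often binds cargo through light chains, and mutations of its neuronal heavy chain KIF5A are a known cause of motor neuron disease.

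The libraries held between 11307034 and 11700755 gene counts. Levels are in CPM, read counts brought to a common library total with TMM factors, which correct for differences in library composition. Clones are given as mean ± SD (n = 2), and the control is a single library with no error of its own. A gene was called when edgeR's quasi-likelihood test gave an adjusted p under 0.05. Of 13705 genes tested, 24.3% were called higher and 25.8% lower in the clones, and the median log2 fold change was 0.002. Of the 39 kinesins tested, 29 were called, against 50.1% of all tested genes. The p-values rest on the spread between the 2 clone libraries, shared over genes, since the single control library adds none. No label states separate cultures for the clones, so how much of that spread is technical cannot be told. Of the defining motor neuron markers, Chat had 7 reads in the control and 0 in the clones, and Mnx1 and Lhx3 had at most 3 reads in any library. Slc18a3 fell from 113 reads to 3 and 1, and Isl1 from 72 reads to 23 and 17. Of 7 neuronal markers, Rbfox3 was not analysed here and the other 6 fell, from a summed 1386 CPM to 370 and 348 CPM. All 5 proliferation markers rose, from a summed 1701 CPM to 2603 and 2823 CPM. Summed fibroblast markers were at 79.4 CPM in the control, 79.7 CPM in clone 1 and 98.4 CPM in clone 2. Within that list Pdgfrb was called higher (5.66 to 13.3 ± 1.23 CPM) and Pdgfra lower (51.7 to 44.2 ± 1.62 CPM). The other 3 of its 5 tested genes were not called. Astrocyte, oligodendrocyte and microglial markers summed to at most 6.82 CPM per list in any library. The part of these differences in the kinesin results was not tested, and in bulk RNA fewer cells of a type and less RNA per cell cannot be told apart.

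The mitotic motors were higher in both clones, though Kif18a in clone 1 was nearly level with the control (17.2 against 17.1 CPM). All 12 passed the filter on low counts, 11 rose and 0 fell, and their median log2 change was 0.72. The share called higher among all tested genes was 24.3%. No mitotic motor was lower at an unadjusted p under 0.05 with edgeR (0 genes), DESeq2 (0) or limma-voom (0). Both clones were above the control for each of the 12 genes, against 44% of all tested genes. Kif20a rose most and Kif18a did not pass. With a preset variation of 20% between libraries 1 of the 12, Kif20a, was called higher by edgeR, against 1.14% of all tested genes. Without the filter on low counts edgeR called 0 of the 12, with 10 higher at an unadjusted p under 0.05, and 4 of all 22976 genes. DESeq2 and limma-voom with the filter each called 11. Among all 13705 tested genes DESeq2 called 11.5% higher, and limma-voom called 6364 in either direction.

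Motors that build and hold the spindle rose. Kif11 encodes the kinesin-5 motor that slides opposed microtubules apart and keeps the spindle bipolar. It was at 144 CPM in the control, 227 CPM in clone 1 and 248 CPM in clone 2, or 0.73 ± 0.06 (SE) on the log2 scale (adjusted p = 1.47e-07, edgeR). Kif15, a kinesin-12 motor that can stand in for Kif11, was at 38.4, 68.7 and 68.9 CPM in the same order, which is 0.84 ± 0.08 (SE) in log2 by edgeR, with an adjusted p = 4.23e-07. Both clones were above the control for both genes, and the clones were nearly equal for Kif15 (SD of 0.130 CPM). Kifc1, a motor that walks to the minus end and focuses spindle poles, rose from 51.7 to 76.2 ± 8.15 CPM. Reads of Kifc1 and of its near-identical copy Kifc5b, described below, may be missing or assigned to the wrong copy.

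Promoter sequences are shown for mitotic motors that rose, as examples of genes that moved together. RefSeq windows on GRCm38.p6 covered 250 bases before to 50 bases after the annotated transcription start. They matched 35 of the 46 members, with 39 windows since 4 members have 2 starts, and Kif20a, Kif5a and Kif5b are among those not matched. Capitals mark matches on either strand to CCAAT, the box bound by the factor NF-Y, and to TTTGAA, the cell cycle genes homology region (CHR) known from promoters of genes that peak in G2 and mitosis. Each line runs 5′ to 3′ along the gene's strand, from 120 bases before the start to 15 bases after it, and no match overlapped another.
Kif11: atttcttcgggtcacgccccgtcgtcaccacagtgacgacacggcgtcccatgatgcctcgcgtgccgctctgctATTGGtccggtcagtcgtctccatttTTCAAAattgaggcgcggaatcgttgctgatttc
Kif23: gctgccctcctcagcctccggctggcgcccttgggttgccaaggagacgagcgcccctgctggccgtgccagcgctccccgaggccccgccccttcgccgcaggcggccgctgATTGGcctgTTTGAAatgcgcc
Kif15: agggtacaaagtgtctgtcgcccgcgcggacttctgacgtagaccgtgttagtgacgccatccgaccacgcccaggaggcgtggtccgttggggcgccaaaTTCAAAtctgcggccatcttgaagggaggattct
Kif18b: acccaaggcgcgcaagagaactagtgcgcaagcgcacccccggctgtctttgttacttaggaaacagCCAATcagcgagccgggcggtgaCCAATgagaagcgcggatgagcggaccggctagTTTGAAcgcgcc
Kifc1: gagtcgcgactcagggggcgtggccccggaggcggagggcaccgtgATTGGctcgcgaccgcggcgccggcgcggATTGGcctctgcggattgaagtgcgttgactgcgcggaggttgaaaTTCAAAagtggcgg

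These windows lie at chr19:37376262-37376396 (Kif11, + strand), chr9:61946785-61946919 (Kif23, - strand), chr9:122950961-122951095 (Kif15, + strand), chr11:102925110-102925244 (Kif18b, - strand) and chr17:33890619-33890753 (Kifc1, - strand). With the start counted as position 1, the CHR match shown began 19 bases before the start in Kif11 and Kif15, and at position 3 in Kif23, 4 in Kif18b and 2 in Kifc1. Kif15 had a further match at position -234, outside the stretch shown. In the mitotic windows not shown, matches began at -228 in Kif14, -103 in Kif2c and 20 in Kif4. Those of Kif22 began at -215 and -17, and those of Kif20b at 8 and 14. Over the windows of 300 bases, TTTGAA or its reverse complement was in 10 of 11 mitotic windows (90.9%), in 1 of 13 transport windows and in 17.9% of 32851 promoter windows. It was also in 3 of 12 windows of other kinesins and in 0 of 3 windows of light chains. CCAAT was in 7 of 11 mitotic windows, 4 of 13 transport windows and 37.4% of all windows. The 1 mitotic window without TTTGAA was that of Kif18a, which was not called. Kif18a had the fewest reads of the mitotic motors, with 205 in the control, 193 in clone 1 and 245 in clone 2. The 1 transport window with TTTGAA was that of Kif1a, which fell, and Kif20a, the mitotic motor that rose most, had no window. Whether the string goes with the change of a gene was not tested. A match is a string of letters and not a tested binding site. Further strings were searched on both strands as a variant CHR and as forms of the E2F site: TTCGAA and TTTCGCGC were in 0 of 11 mitotic windows and TTTGGCGC in 2, those of Kif15 and Kif18a. The shares among all windows were 1.56% for TTCGAA, 0.323% for TTTCGCGC and 0.514% for TTTGGCGC. For contrast, the same stretch is shown for Kif18a (chr2:109280618-109280752, + strand) and for the transport motors that changed most in each direction among those with over 100 reads in every library, Kif1c (chr11:70700428-70700562, + strand) and Kif5c (chr2:49619166-49619300, + strand). None of these holds either match.
Kif18a: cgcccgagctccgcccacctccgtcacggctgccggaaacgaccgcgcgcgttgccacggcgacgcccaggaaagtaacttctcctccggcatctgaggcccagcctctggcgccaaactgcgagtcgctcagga
Kif1c: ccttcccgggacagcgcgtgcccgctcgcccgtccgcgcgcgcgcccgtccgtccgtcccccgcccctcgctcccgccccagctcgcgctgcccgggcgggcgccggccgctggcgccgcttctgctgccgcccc
Kif5c: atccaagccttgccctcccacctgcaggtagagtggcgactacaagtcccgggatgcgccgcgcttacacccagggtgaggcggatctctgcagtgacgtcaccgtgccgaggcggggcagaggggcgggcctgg

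**Figure D1:**
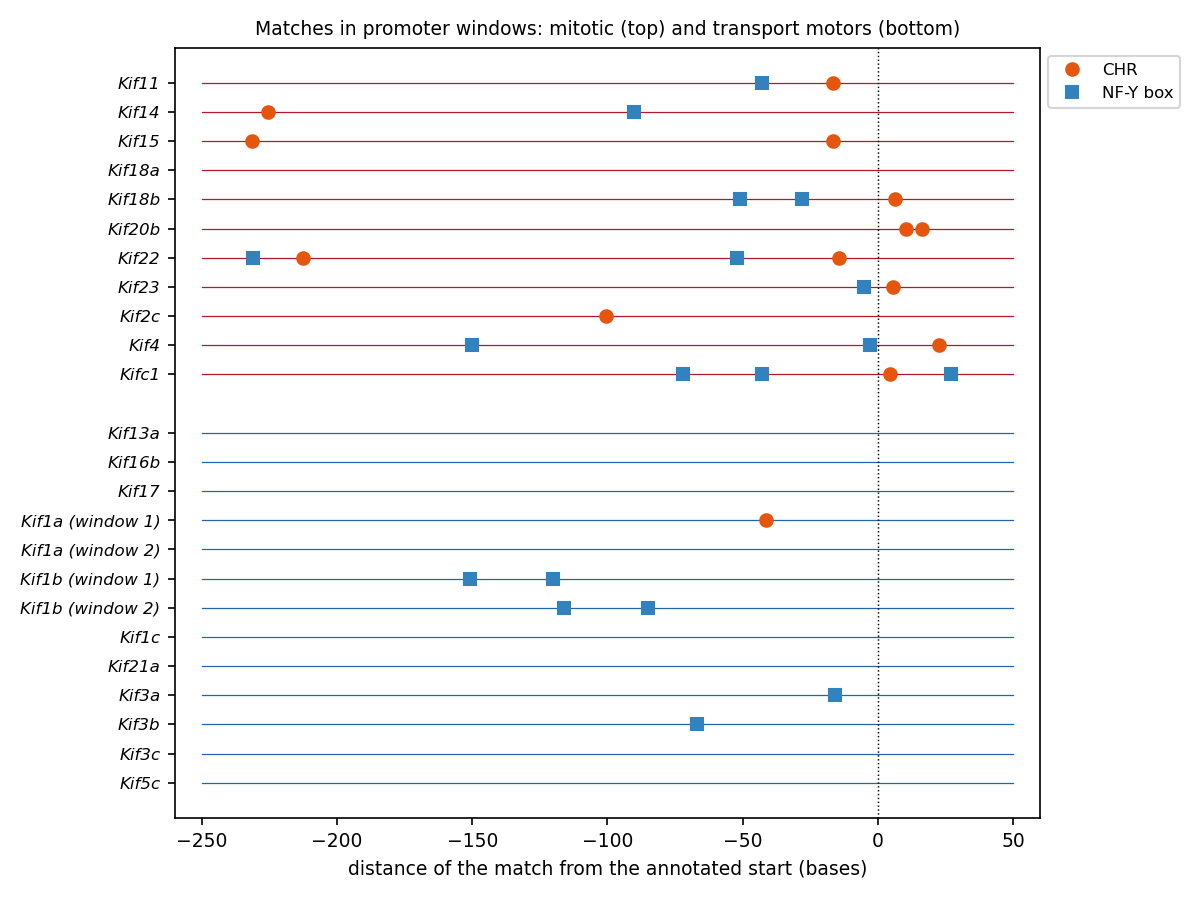
Positions of CHR and NF-Y box matches (points) along promoter windows of 11 mitotic and 13 transport motor windows, as distance from the annotated start in bases; each line is 1 window. CHR matches lie in 10 of the 11 mitotic windows and in 1 transport window, that of Kif1a.

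Of the 5 mitotic motors that bind chromosomes or shorten microtubules, Kif4, Kif22, Kif2c and Kif18b rose and Kif18a did not pass. Kif4, a chromokinesin that shapes chromosomes and the central spindle, rose from 94.0 CPM to 123 and 132 CPM. Kif22, which pushes chromosome arms away from the poles, rose from 96.8 CPM to 128 and 143 CPM. Kif2c, a kinesin-13 that removes tubulin at kinetochores and corrects faulty attachments, rose from 32.2 CPM to 47.7 and 58.2 CPM. Of the kinesin-8 pair, Kif18b, which trims astral microtubules, rose from 60.9 CPM to 95.04 and 106 CPM, or 0.72 ± 0.08 (SE) on the log2 scale (adjusted p = 1.54e-06, edgeR). Kif18a, which damps chromosome movement at the metaphase plate, was at 17.1 CPM in the control, 17.2 CPM in clone 1 and 22.0 CPM in clone 2. Clone 1 was level with the control in Kif18a and clone 2 lay above it, and the log2 change of 0.20 ± 0.16 (SE) did not pass (adjusted p = 0.300, edgeR). It was 0.37 without clone 1 and 0.01 without clone 2. Kif22 is on chromosome 7 and Kif4 on chromosome X, where the median log2 fold changes of all tested genes were 0.26 and -0.22, and the part of the chromosome was not tested.

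The cytokinesis motors included the largest rises among the mitotic motors. Kif20a, which carries the chromosomal passenger complex to the central spindle, was at 99.9 CPM in the control, 210 CPM in clone 1 and 242 CPM in clone 2, or 1.18 ± 0.08 (SE) on the log2 scale (adjusted p = 4.52e-09, edgeR). Kif23, the motor of the centralspindlin complex, was at 41.5, 74.2 and 96.2 CPM, which is 1.04 ± 0.12 (SE) in log2 by edgeR, with an adjusted p = 2.65e-06. In both genes the lower clone was well above the control, and clone 2 was above clone 1. Kif14, a midbody motor that binds citron kinase, rose from 31.5 to 53.4 ± 5.16 CPM, and Kif20b from 53.4 to 80.1 ± 7.99 CPM. Kif20a (ENSMUSG00000003779) is on chromosome 18 (GRCm38, 34624613 to 34633277), where 339 tested genes had a median log2 fold change of 0.41, and its exons overlap those of Cdc23 on the other strand by 1271 bases, so its counts may hold or lack reads of Cdc23. Off chromosomes 7, 15, 18 and X, 8 of 9 mitotic motors rose, and the median log2 change of the 9 was 0.72. A fit without those chromosomes called 5468 of 11322 genes in either direction, with a median log2 change of 0.005. In these same data the medians of those chromosomes were 0.26, -0.28, 0.41 and -0.22 in that order. The part of the chromosome in the rises was not tested.

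Most genes of spindle proteins that work with these motors rose as well. Of 20 genes on a list of mitotic spindle partners, 19 rose, and the median log2 change of the 20 was 0.60. The remaining gene, Spdl1, had a log2 change of 0.29 that did not pass (adjusted p = 0.0887, edgeR). All tested genes were called higher in 24.3% of cases. The partners with the lowest p were Numa1, a spindle pole protein gene, which rose from 194 to 356 ± 9.02 CPM, Zwilch and Kntc1, kinetochore checkpoint genes, and Incenp, a subunit of the passenger complex. Zwilch rose from 53.2 to 105 ± 4.04 CPM, Kntc1 from 64.7 to 120 ± 3.08 CPM and Incenp from 120 to 192 ± 8.27 CPM. Racgap1, picked after its values were seen, forms centralspindlin with the product of Kif23 and rose by 0.21 on the log2 scale. Its difference from the 1.04 of Kif23 was not tested. Cenpe, picked in the same way, the kinetochore kinesin whose symbol keeps it out of the member list, rose from 74.4 to 114 ± 12.9 CPM.

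**Figure D2:**
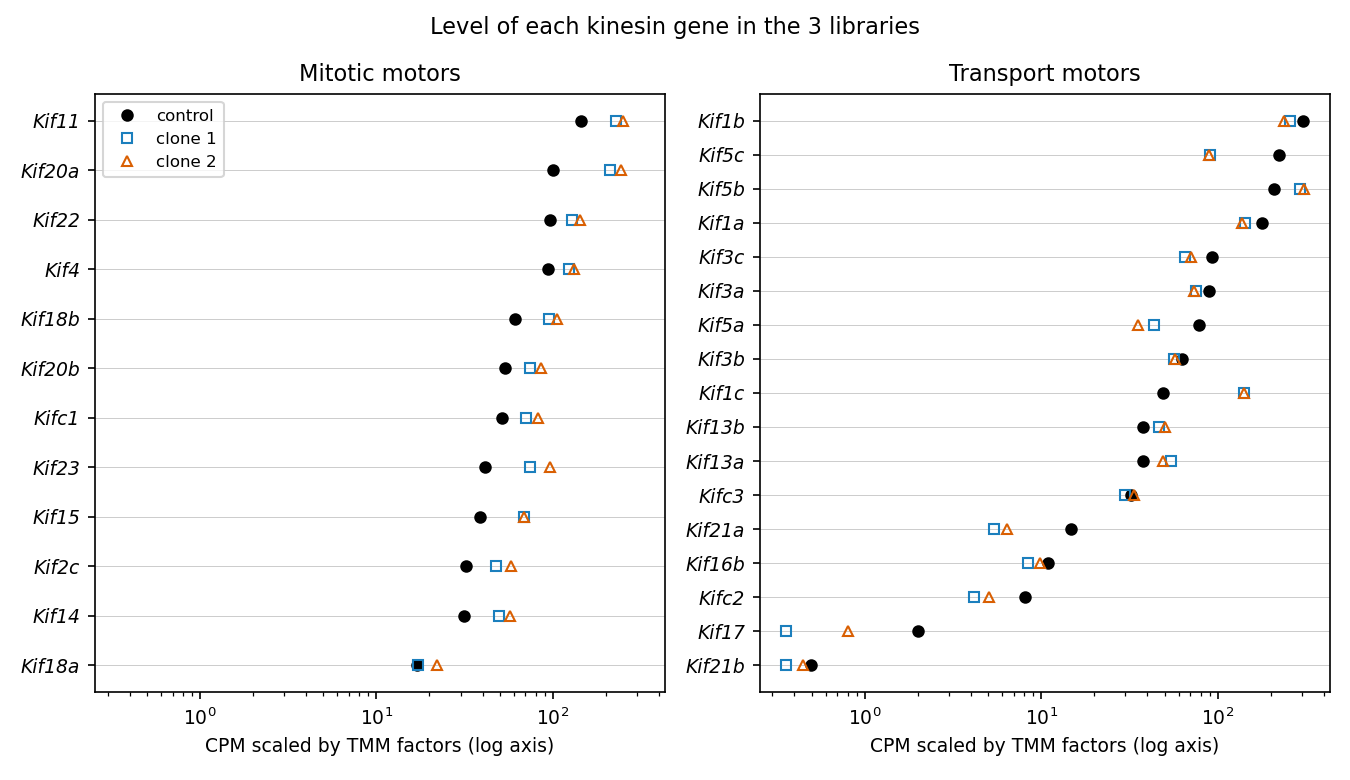
Level of each mitotic (left) and transport motor (right) in the control, clone 1 and clone 2 as CPM scaled by TMM factors on a log axis; each point is 1 library. The 12 mitotic motors have both clones to the right of the control, with clone 1 nearly level for Kif18a. The transport motors lie on either side, with Kif1c, Kif5b, Kif13a and Kif13b to the right.

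The transport motors moved in both directions. Of 17, 16 passed the filter, and of these 9 fell and 4 rose, and the median log2 change of the 16 was -0.28. All tested genes were called lower in 25.8% and higher in 24.3% of cases. Kif5c, Kif5a, Kif21a and Kif17 fell to the lowest fractions of the control, and Kif1c rose more than any other kinesin. The 4 that rose were Kif1c, Kif5b, Kif13a and Kif13b. DESeq2 called 6 transport motors lower and 2 higher, Kif1c and Kif5b, against 10.6% and 11.5% of all tested genes. With the preset variation of 20%, 3 were called lower and 1 higher, against 7.24% and 1.14% of all tested genes. Without the filter on low counts edgeR called 0 in either direction, with 4 higher and 9 lower at an unadjusted p under 0.05. Among all 22976 genes that fit called 4.

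Within kinesin-1, the neuronal heavy chains fell and the ubiquitous one rose. Kif5c, a heavy chain enriched in neurons, was at 221 CPM in the control, 90.9 CPM in clone 1 and 88.9 CPM in clone 2, or -1.30 ± 0.06 (SE) on the log2 scale (adjusted p = 4.05e-11, edgeR). Kif5a, the heavy chain linked to motor neuron disease, was at 78.0, 43.4 and 35.5 CPM, which is -0.98 ± 0.10 (SE) in log2 by edgeR, with an adjusted p = 4.40e-07. Kif5b, the heavy chain of most cell types, was at 210 CPM in the control and at 292 and 308 CPM in the clones, or 0.52 ± 0.06 (SE) on the log2 scale (adjusted p = 1.49e-06, edgeR). For each of the 3 genes the clones lay on one side of the control, further from it than from each other. Kif5b (ENSMUSG00000006740) lies on chromosome 18 (GRCm38, 6201002 to 6242174), with the chromosome median of 0.41, and Kif5c on chromosome 2 (49619298 to 49774778), where the median was 0.01.

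Per kilobase of exon, the scale on which genes can be set side by side, the heavy chains of kinesin-1 stood in other proportions in the clones than in the control. The 3 heavy chains summed to 68.4 CPM per kilobase in the control and 55.8 ± 0.364 in the clones. Kif5b supplied 38.4% of this sum in the control, 65.9% in clone 1 and 68.7% in clone 2. The share of Kif5c went from 45.3% to 22.9% and 22.2%, and that of Kif5a from 16.3% to 11.2% and 9.06%. On this scale Kif5c was thus the most abundant member in the control (31.0 CPM per kilobase) and the 14th in the clones (12.6 ± 0.202). Kif5b was the second in both (26.3 and 37.6 ± 1.36). Without division by length, Kif1b was above Kif5c in the control, at 304 against 221 CPM.

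None of the 3 light chains tested was called, beside 50.1% of all tested genes. So small a group cannot be set apart from that share, and its difference from the heavy chains was not tested. Klc1, the light chain best known from neurons, was at 96.2 CPM in the control, 98.6 CPM in clone 1 and 85.8 CPM in clone 2. Klc2 was at 51.2, 50.6 and 51.6 CPM, and Klc4 at 14.0, 10.2 and 12.2 CPM. None of these 3 light chains was called by edgeR (0 at an unadjusted p under 0.05, and 0 by DESeq2 or limma-voom), and the control lay between the clones for Klc1 and Klc2. Their log2 fold changes were -0.06 ± 0.08, -0.002 ± 0.08 and -0.32 ± 0.17 (SE). With clone 1 left out they were -0.16, 0.01 and -0.19, and with clone 2 left out 0.04, -0.02 and -0.45, so the sign of Klc1 and Klc2 turned with the clone used. Klc3 had 9, 3 and 7 reads and was not tested.

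**Figure D3:**
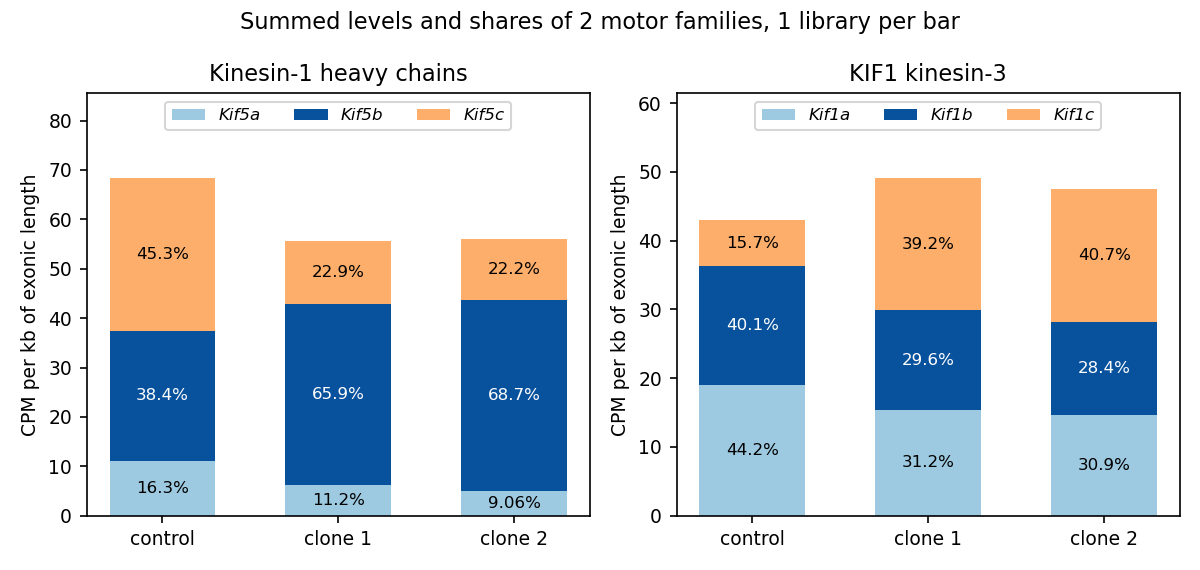
Summed level of the kinesin-1 heavy chains (left) and of the KIF1 motors (right) in CPM per kilobase of exonic length, 1 library per bar, with each gene's share of its family. Kif5b goes from 38.4% to 65.9% and 68.7% of kinesin-1, and Kif1c from 15.7% to 39.2% and 40.7% of the KIF1 motors.

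The KIF1 motors of the kinesin-3 family also moved apart. Kif1c, a motor found in most tissues that carries secretory vesicles, was at 49.0 CPM in the control, 140 CPM in clone 1 and 141 CPM in clone 2, which is 1.52 ± 0.07 (SE) in log2 by edgeR, with an adjusted p = 5.79e-11. Kif1a, which carries synaptic vesicle precursors along axons, was at 177, 143 and 137 CPM, or -0.34 ± 0.06 (SE) on the log2 scale (adjusted p = 1.51e-04, edgeR). Kif1b, whose splice forms carry synaptic vesicle precursors or mitochondria, fell from 304 CPM to 256 and 238 CPM. Kif1c (ENSMUSG00000020821) lies on chromosome 11 (70700548 to 70731964). The SD of the clones was 0.341 CPM for Kif1c, and the falls of Kif1a and Kif1b were small beside its rise. Per kilobase, Kif1c therefore went from the smallest share of the KIF1 sum to the largest: 15.7% of 43.0 CPM per kilobase in the control and 39.9 ± 1.04% of 48.3 ± 1.14 in the clones. That order rests on lengths that count every annotated exon. Without division by length, Kif1b was the highest of the KIF1 motors in the clones too, at 247 ± 12.7 CPM. Kif1c was then at 140 ± 0.341 CPM, level with Kif1a at 140 ± 4.34 CPM.

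Kif13a and Kif13b, kinesin-3 genes of membrane traffic, were among those that rose. Kif13a, which moves recycling endosomes, went from 37.6 CPM to 54.2 and 48.9 CPM (edgeR adjusted p = 7.35e-04), and Kif13b from 37.9 CPM to 46.8 and 50.4 CPM (edgeR adjusted p = 0.00373). DESeq2 did not call either of them. Kif16b, an early endosome motor, was at 10.9, 8.46 and 9.89 CPM and did not pass (edgeR adjusted p = 0.283).

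Of the 3 motor genes of kinesin-2, the heterotrimeric motor of cilia and axons, Kif3a and Kif3c fell by small amounts. Kif3a was at 89.1 CPM in the control and 74.9 and 73.5 CPM in the clones, which is -0.26 ± 0.07 (SE) in log2 by edgeR, with an adjusted p = 0.00442, and was not called by DESeq2. Kif3c, the form most abundant in the nervous system, was at 92.3, 64.8 and 70.8 CPM, or -0.44 ± 0.07 (SE) on the log2 scale (adjusted p = 1.13e-04, edgeR). Kif3b, the usual partner of Kif3a, was at 62.5, 56.4 and 57.1 CPM and did not pass (edgeR adjusted p = 0.144). Exons of Kif3c overlap those of an opposite-strand gene by 2617 bases, so its counts may hold or lack reads of that gene. The 3 genes summed to 48.4 CPM per kilobase in the control and 39.9 ± 0.388 in the clones, and Kif3a kept the largest share, 51.3% and 51.8 ± 1.18%.

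The least abundant transport motors included the deepest falls. Kif21a, an axonal kinesin that limits microtubule growth, had 177 reads in the control, 61 in clone 1 and 71 in clone 2, which is -1.32 ± 0.19 (SE) in log2 by edgeR, with an adjusted p = 2.45e-05. Kif17, a dendritic and ciliary motor, had 24, 4 and 9 reads, or -1.76 ± 0.49 (SE) on the log2 scale (adjusted p = 0.00747, edgeR), and was not called by DESeq2. Without clone 2 the log2 change of Kif17 was -2.45 and without clone 1 it was -1.29. Kifc2, a neuronal minus-end motor, had 97, 47 and 56 reads and fell by 0.81 on the log2 scale (edgeR adjusted p = 0.00848; not called by DESeq2). Kif21a and Kifc2 are on chromosome 15, whose median log2 fold change was -0.28. Kifc3 was at 32.4, 29.8 and 33.5 CPM, with the control between the clones (edgeR adjusted p = 0.830). Kif21b had 6, 4 and 5 reads and was not tested.

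Cargo adaptors of these motors fell more often than they rose, on a list set beside 25.8% lower and 24.3% higher among all tested genes. Of 24 adaptor genes tested, 15 fell and 3 rose, and their median log2 change was -0.28. Mapk8ip2 and Mapk8ip1, genes of the JIP scaffolds that link cargo to kinesin-1, fell from 114 to 2.42 ± 0.0157 CPM and from 94.4 to 24.2 ± 2.81 CPM. Madd, whose product connects KIF1 motors to Rab3 vesicles, fell from 73.2 to 9.88 ± 0.632 CPM. Trak1, which couples kinesin-1 to mitochondria, rose from 158 to 300 ± 5.62 CPM. Kifap3, the non-motor subunit of kinesin-2, named here for its partners and not by rank, fell from 66.1 to 46.7 ± 1.66 CPM.

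Genes of cytoplasmic dynein, the motor that moves towards the minus end of microtubules, mostly fell, but its heavy chain gene rose. Of 25 tested genes of dynein, dynactin and their regulators, 17 fell and 4 rose, and their median log2 change was -0.20. All tested genes were called lower in 25.8% and higher in 24.3% of cases. The lowest p belonged to the light chain gene Dynll2 (246 to 166 ± 6.71 CPM), the regulator Nde1 (36.1 to 63.8 ± 7.94 CPM), the light intermediate chain gene Dync1li1 (172 to 126 ± 4.18 CPM) and the dynactin subunit gene Dctn3 (65.0 to 45.3 ± 1.12 CPM). Of these 4, Nde1, which also acts in mitosis, was the 1 that rose. Named for their direction and not by rank, the other genes of the list that rose were Dync1h1, Dctn1 and Bicd2. The heavy chain gene Dync1h1 went from 327 to 389 ± 2.27 CPM. The dynactin subunit gene Dctn1 went from 129 to 168 ± 4.29 CPM, and Bicd2 from 78.8 to 96.4 ± 2.33 CPM.

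**Figure D4:**
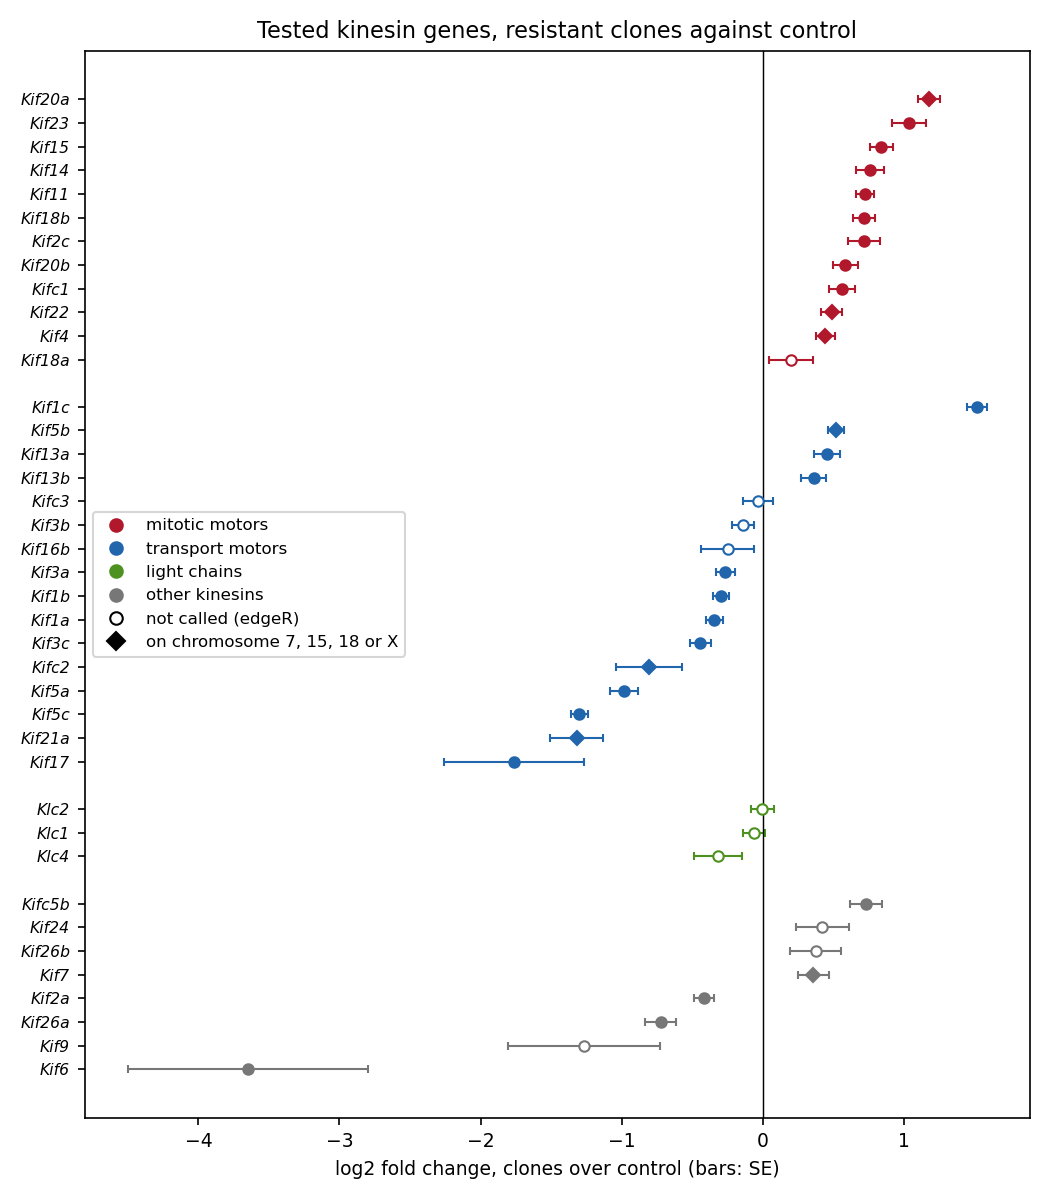
Log2 fold change of the 39 tested members, clones over control, with standard errors from edgeR, by role; open symbols were not called and diamonds mark genes on chromosomes 7, 15, 18 or X. The mitotic motors lie between 0.20 and 1.18, and the transport motors between -1.76 and 1.52.

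Of the 13 other kinesins, 8 were tested, 2 rose and 3 fell. These 5 calls among 8 are near the 50.1% called among all tested genes. Kifc5b, a near-identical copy of Kifc1, rose from 43.4 CPM to 63.9 and 80.2 CPM, and reads of the pair may be missing or assigned to the wrong copy. Kif7, the ciliary kinesin of hedgehog signalling on chromosome 7, was at 23.2, 29.2 and 30.3 CPM (edgeR adjusted p = 0.0138; not called by DESeq2). Kif26a, which lacks motor activity and acts in signalling, fell from 37.5 CPM to 23.9 and 21.6 CPM, which is -0.72 ± 0.11 (SE) in log2 by edgeR, with an adjusted p = 4.02e-05. Its relative Kif26b was at 8.90, 11.6 and 11.5 CPM and did not pass (edgeR adjusted p = 0.0965).

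Kif2a, a microtubule depolymerase that prunes axon branches and also works at spindle poles, fell from 73.5 to 55.1 ± 0.212 CPM (edgeR adjusted p = 2.24e-04; not called by DESeq2). Its direction was opposite to that of the mitotic kinesin-13 gene Kif2c. Kif2a shares 1229 exonic bases with Dimt1 on the other strand. Kif24, a centriole kinesin, was at 8.24, 11.1 and 11.0 CPM (edgeR adjusted p = 0.0697). The axonemal kinesin genes Kif6 and Kif9 had 15, 2 and 0 reads and 17, 6 and 7 reads. Kif6 was called by edgeR (adjusted p = 0.00186) and not by DESeq2, and its log2 change of -3.65 rests on 2 reads in the clones: it was -6.87 without clone 1 and -2.74 without clone 2. Kif12, Kif19a, Kif27, Kif28 and the pseudogene Kifc5c-ps had at most 4 reads in any library.

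Summed per kilobase, the order of the roles changed. The mitotic motors stood at 140 CPM per kilobase in the control, 218 in clone 1 and 248 in clone 2. The transport motors stood at 180, 163 and 164 CPM per kilobase. On this scale the transport sum was thus the larger in the control and the mitotic sum the larger in both clones. The lengths used count every annotated exon of a gene. Without division by length, the mitotic sum was still the smaller in clone 1, at 1186 CPM against 1311 CPM for the transport motors. In clone 2 these sums were 1342 and 1304 CPM, and in the control 761 and 1427 CPM. Kif20a went from the fifth place among the 39 tested members in the control (23.0 CPM per kilobase) to the first in the clones (52.2 ± 5.28), ahead of Kif5b, with the limit from the overlap with Cdc23. Without division by length, Kif5b was above Kif20a in the clones, at 300 ± 10.9 against 226 ± 22.9 CPM. Per kilobase, Kif11 followed in the third place in the clones (31.9 ± 2.05), and after it came Kif18b (28.1 ± 2.10) and Kif22 (27.7 ± 2.18). Kif18b was slightly above Kif22 in clone 1 (26.6 against 26.2) and in clone 2 (29.6 against 29.2), and this difference was not tested.

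The mitotic motors were at higher levels in clone 2 than in clone 1, by ratios of 1.30 or less. This comparison has 1 library on each side and no replicate check, so ratios are given with 95% intervals that cover counting error only. Each of the 12 mitotic motors had the higher level in clone 2, as did 6997 of all 13705 tested genes, though Kif15 was nearly level. For 10 of the 12 the interval lay above 1, against 6.01% of all tested genes. Of 7096 genes with a mean CPM in the range of the mitotic motors, 436 had such an interval. The ratio of clone 2 to clone 1 was 1.30 for Kif23 (1.18 to 1.42), 1.28 for Kif18a (1.06 to 1.56) and 1.15 for Kif20a (1.09 to 1.22). For Kif15 it was 1.00 (0.906 to 1.11) and for Kif4 1.07 (0.994 to 1.15). The median ratio was 1.15 for the mitotic motors and 1.00 for all tested genes. Of 16 transport motors, Kif5b had an interval barely above 1, with a ratio of 1.05, a lower limit that rounds to 1 and an upper limit of 1.1. Kif5a (0.819, 0.715 to 0.937) and Kif1b (0.930, 0.882 to 0.981) had intervals below 1, which 5.5% of all tested genes had. Kif5c (0.978, 0.895 to 1.07) and Kif1c (1.00, 0.935 to 1.08) had intervals that span 1. The light chain gene Klc1 was also lower in clone 2, with a ratio of 0.871 (0.798 to 0.950). Ccnb1, a mitotic cyclin gene among the proliferation markers, was at 157 CPM in clone 1 and 185 CPM in clone 2, and Mki67 at 657 and 730 CPM. Of the other proliferation markers, Top2a was at 1260 and 1370 CPM and Pcna at 249 and 266 CPM. Mcm2 went the other way, at 280.5 CPM in clone 1 and 272.8 CPM in clone 2. The part of such differences in the motor ratios was not tested.

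**Figure D5:**
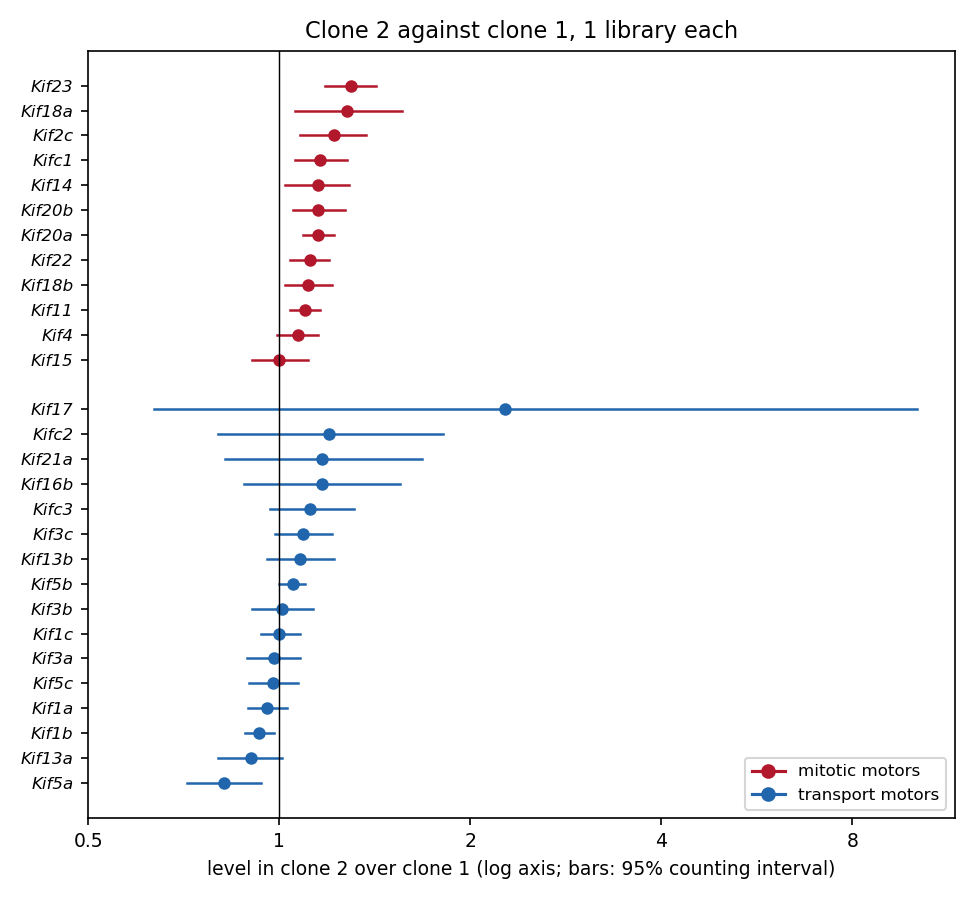
Level in clone 2 over clone 1 for the tested mitotic and transport motors on a log axis, with 95% intervals for counting error; each clone is 1 library. The mitotic motors lie at or above 1, up to 1.30 for Kif23, and the transport motors on both sides of 1.

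These calls depend on how the spread between libraries is set. With a preset variation of 20% between libraries, 6 of the 29 called members stayed called: Kif20a, Kif1c, Kif5c, Kif21a, Kif17 and Kif6. In that fit 1.14% of all tested genes were called higher and 7.24% lower. The authors' deposited table lists 11 mitotic motors higher and 0 lower, and 2 transport motors higher and 6 lower, at an adjusted p under 0.05, and 6.91% of its genes higher and 6.74% lower. That table comes from the same 3 libraries.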

How the data were processed

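The mRNA of 3 NSC-34 samples was made into libraries with a stranded kit, per the labels' protocols. The deposited raw counts per gene came from STAR's gene counting option, and the RPM columns are those counts scaled by the authors to mapped reads, per the file headers. RPM values were not used for any result. The authors' deposited table of log2 fold changes with standard errors (held as a score) and raw and adjusted p-values came from DESeq2, per the file headers, which name STAR 2.5, Gencode M16 (Ensembl 91) and GRCm38/mm10. The submitters' processing notes name STAR 2.5.3. Labels and headers do not state which strand was counted. Exons of 19 members overlap another annotated gene, mostly on the other strand.

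Low counts were removed with filterByExpr, which kept 13705 of 22976 genes and 39 of 46 members. The main test was edgeR 4.0.16 in R 4.3.3 (quasi-likelihood F test, legacy option off, two-sided, TMM factors, Benjamini-Hochberg adjustment over all tested genes at 0.05). Its only residual degree of freedom (1) lies between the clones, and edgeR shares the spread over genes. A standard error was taken as the log2 fold change over the square root of F. Alternatives used DESeq2 1.42.0, limma-voom (limma 3.58.1), RLE factors, other filters, legacy or robust fits, a preset variation of 20%, leaving out each clone, and leaving out chromosomes 7, 15, 18 and X. Exonic lengths and positions came from Gencode M21 on GRCm38. Intervals between clones are exact (Clopper-Pearson, 95%), and 3 counts correspond to between 0.250 and 0.270 CPM. Library totals of 11307034 to 11700755 counts limit the precision.

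The members, roles and partner lists were chosen with earlier results of these data known. All tested members could be named, and of each partner list the 4 genes with the lowest edgeR p. Racgap1, Cenpe, Kifap3, Dync1h1, Dctn1 and Bicd2, the promoters shown and the motifs searched were chosen after values were seen. No explanation of a difference was tested.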

Additional observations from a re-analysis of the deposited data

How the results depend on the processing

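The number of genes called fell from 6868 to 3037 with DESeq2, 1148 with a preset variation of 20% and 4 without the low-count filter. Without the filter and with the legacy fit, an alternative added after seeing the data, it was 0, with 11 mitotic motors higher and 4 transport motors higher and 8 lower at an unadjusted p under 0.05 in edgeR. Mitotic motors called higher went from 11 to 1 with the preset variation and to 0 in both fits without the filter. Transport motors called higher went from 4 to 2 with DESeq2, 1 with the preset variation and 0 in both fits without the filter, and those called lower from 9 to 3 with the preset variation and 0 in both fits without the filter. The fits without the filter had a median of 1.16 prior degrees of freedom, or 1.38 with the legacy fit, against 14.6 with the filter; the cause was not tested. RLE factors, a minimum mean CPM of 1, the legacy and robust fits and limma-voom gave 6364 to 6875 called genes and the same counts of called mitotic and transport motors. DESeq2 kept 21 of the 29 called members and lost Kif13a, Kif13b, Kif17, Kif2a, Kif3a, Kif6, Kif7 and Kifc2. Without chromosomes 7, 15, 18 and X, the 22 called members left in the fit stayed called. The median log2 fold change of the transport motors was -0.253 without those chromosomes and between -0.315 and -0.281 with 1 clone left out, against -0.282. That of the mitotic motors was between 0.605 and 0.792 with 1 clone left out, against 0.718. With a clone left out no residual degrees of freedom remain, so no calls were made. Klc2, which was not called, had a log2 fold change of -0.002 that became 0.008 in both fits without the filter and 0.009 without those chromosomes. No paired analysis was possible because the labels number the clones and not the control, which is 1 library. The single control limits all comparisons with the clones, and 7 members had too few reads to be tested.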
